A study of Mus musculus with 24 samples.

Results

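Krüppel-like factors (KLFs) other than the erythroid factor Klf1 are described here in 3 sorted bone marrow populations of mice with different Jak2 alleles. The members were chosen by gene symbol: Klf2, Klf3, Klf4, Klf6, Klf7, Klf9, Klf10, Klf12 and Klf13, 9 of the 24454 genes in the count table. Earlier results of these data were known when the 9 genes were proposed, among them Klf2 in the stem cells of the VF line, so the values below describe these libraries and are not independent support. All 9 genes had reads in some library.

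KLFs are transcription factors that bind CACCC and GC-rich boxes in promoters and enhancers through zinc fingers at their C-terminal end. The family falls into branches by partner protein. Klf2, Klf4, Klf6 and Klf7 belong to a branch that often activates genes, Klf3 and Klf12 recruit the CtBP corepressor, and Klf9, Klf10 and Klf13 bind the SIN3A corepressor. In blood, Klf2 is best known for quiescence and homing of lymphocytes, Klf4 for monocyte formation and pluripotency, and Klf3 for acting downstream of Klf1 in red cell precursors.

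RNA was measured in LTHSC, the long-term haematopoietic stem cells, in preMegE, progenitors of megakaryocytes and red cells, and in MkP, progenitors of megakaryocytes. Bone marrow of C57BL/6N mice was sorted 12 weeks after 5 days of tamoxifen, a drug that switches on inducible forms of Cre and that the labels give for all groups. KI is the Scl.Cre mouse Jak2 knock-in, E12 is Scl.Cre Exon12 (E12) and VF is Vav1.Cre V617F (VF). Both drivers act in blood stem cells and pass the allele to their progeny, and since the driver changes together with VF, mutation and driver cannot be told apart. The labels do not say which line is unmutated, so KI was used as the reference and not taken as wild type. The 24 libraries form 8 groups of 3, and a preMegE group of the E12 line was not analysed here. Whether the 3 libraries of a group came from separate animals is not labelled, so the p-values reflect only the spread among these libraries, which may be technical.

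Total counts were 10357597 to 29688389 per library. Levels are given as CPM, a gene's count scaled to the library's total, after TMM scaling over all 24 libraries, and n = 3 per group. The Jak2 level in LTHSC ranged over 18.2 to 56.1 CPM for E12, 40.9 to 66.2 for KI and 85.9 to 105 for VF, which does not show which allele was read. The summed level of 10 stem cell markers was 809 to 1076 CPM in 8 of 9 LTHSC libraries and 77.7 to 270 CPM in the other populations. The library LTHSC E12 4 had 297 CPM of these markers and 27545 CPM of 12 neutrophil and monocyte markers, against 789 to 3465 CPM in the other LTHSC libraries. The libraries preMegE KI 1, MkP KI 5 and MkP KI 6 had 3951, 4900 and 6589 CPM of 12 lymphoid markers, against at most 1175 CPM in the other preMegE and MkP libraries. Much of that sum was Nkg7, while the T cell marker Cd3e reached at most 0.55 CPM in preMegE and was at 0 in all MkP libraries. These 4 libraries had TMM factors under 0.8 within their population, and values without them are given beside the main results.

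The promoters of Klf2, Klf4 and Klf6 are shown because these genes had the largest differences between KI and VF stem cells. Each run is the 250 bases before the RefSeq start site, 5′ to 3′ on the gene's strand, from the RefSeq annotation of GRCm38.p6. Capitals mark GC boxes (GGGCGG) and CACCC boxes (CACCC) on either strand. The Klf2 stretch is chr8:72318812-72319061 on the plus strand, that of Klf4 is chr4:55532476-55532725 on the minus strand and that of Klf6 is chr13:5861239-5861488 on the plus strand.
Klf2: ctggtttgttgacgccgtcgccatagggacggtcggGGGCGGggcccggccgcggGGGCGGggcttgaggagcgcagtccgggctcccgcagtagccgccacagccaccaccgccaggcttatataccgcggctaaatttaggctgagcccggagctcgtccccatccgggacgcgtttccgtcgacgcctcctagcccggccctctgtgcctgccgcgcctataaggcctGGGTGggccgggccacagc
Klf4: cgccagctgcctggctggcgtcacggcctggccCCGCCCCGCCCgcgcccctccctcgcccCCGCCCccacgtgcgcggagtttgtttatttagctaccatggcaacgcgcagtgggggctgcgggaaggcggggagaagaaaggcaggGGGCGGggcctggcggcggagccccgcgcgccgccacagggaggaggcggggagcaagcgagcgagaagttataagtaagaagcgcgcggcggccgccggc
Klf6: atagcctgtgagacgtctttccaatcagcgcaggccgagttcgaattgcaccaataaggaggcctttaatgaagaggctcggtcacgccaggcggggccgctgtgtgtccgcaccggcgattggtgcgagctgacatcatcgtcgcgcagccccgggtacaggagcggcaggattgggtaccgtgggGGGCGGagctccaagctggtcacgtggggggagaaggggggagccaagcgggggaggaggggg

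Motifs were searched on both strands in 300-base windows, 250 bases before to 50 after the start, for the 8 members with a RefSeq entry. The Klf12 window, chr14:100149747-100150046 on the minus strand, lies well inside the gene, which spans 99866181 to 100285891. It thus belongs to an internal start, and it is counted among the members with CACCC and with TGACG below. The window held 69.3% G and C in Klf2, 74.3% in Klf4 and 63% in Klf6, against a median of 53% in 32544 promoters. GC boxes stood 214 and 195 bases before the Klf2 start, at 4 places in Klf4 and at 1 in Klf6. At least 1 GC box was found in 6 of 8 members and in 35.9% of all promoters, and the figures for CACCC were 6 of 8 and 57.7%. Of these 3 genes, Klf2 had the letters of a CACCC box (1 match) and Klf6 those of a CCAAT box (CCAAT, 4 matches, found in 3 of 8 members and in 37.4% of all promoters). The cAMP half-site TGACG occurred in 6 of 8 members and in 20.9% of all. An MEF2 box, by name, stood 118 bases before the Klf2 start and in 3.16% of all promoters. A serum response CArG box, by name, matched in none of the 8 windows and in 1.64% of all, and the AP-1 site TGANTCA matched in 1 of 8, Klf9, and in 7.79% of all. These matches are letters in a window and do not show binding.

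**Figure D1:**
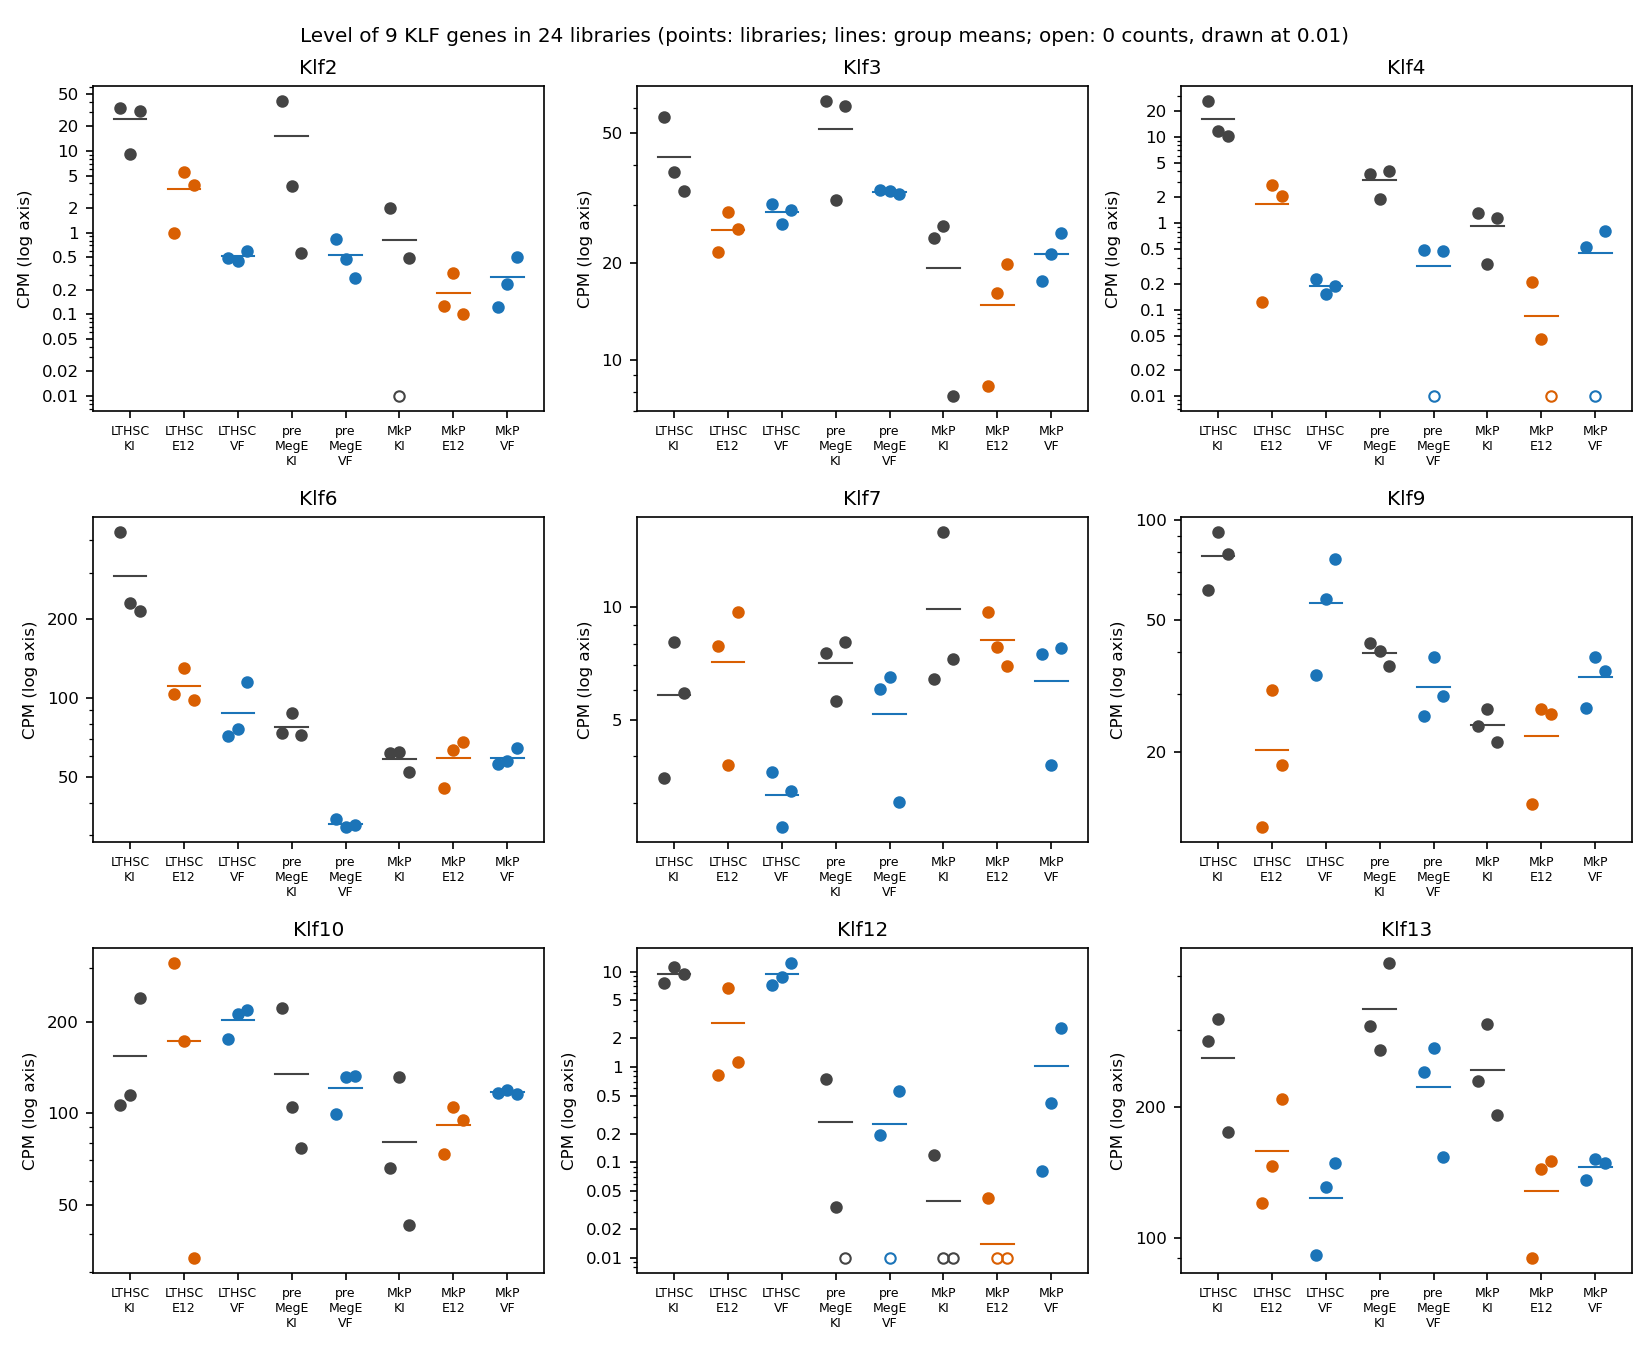
CPM of each KLF gene (y axis, log scale) in the 8 groups of population and genotype (x axis), with 1 point per library, lines for group means and open points for libraries with 0 counts, drawn at 0.01. Klf2 and Klf4 are spread over the widest range within LTHSC, from 33.1 to 0.45 and from 26.1 to 0.12 CPM, and Klf12 is highest in LTHSC.

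Per kilobase of deposited gene length, Klf6 had the highest level of the 9 genes in KI LTHSC (69.3 ± 28.5 CPM per kb, SD, n = 3). Klf13 (40.5 ± 11.7 CPM per kb) and Klf10 (40.3 ± 19.7) followed with overlapping spreads, then Klf9 (23.9 ± 4.70), Klf3 (18.3 ± 5.18) and Klf2 (13.4 ± 7.24). Klf4 (5.25 ± 2.88 CPM per kb), Klf7 (4.37 ± 1.72) and Klf12 (1.64 ± 0.32) were the lowest. In VF LTHSC the order of levels was another. Klf10 led there (53.0 ± 6.15 CPM per kb), followed by Klf6 (20.8 ± 5.66), Klf13 (19.4 ± 4.57) and Klf9 (17.2 ± 6.48), which lay within 1 SD of each other. Klf2 (0.283 ± 0.044 CPM per kb) and Klf4 (0.062 ± 0.012) were the lowest of the 9 in VF LTHSC, below Klf12 (1.65 ± 0.46). In VF MkP, Klf10 (30.7 ± 0.53 CPM per kb) and Klf13 (22.8 ± 1.35) stood highest and Klf4 (0.146 ± 0.134), Klf2 (0.158 ± 0.109) and Klf12 (0.179 ± 0.236) lowest.

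Between populations, most KLF genes were higher in stem cells than in megakaryocyte progenitors, averaged over the 3 genotypes. In edgeR's quasi-likelihood fit, with p-values adjusted after Benjamini and Hochberg over 14965 genes, 7 of 9 members fell in MkP against LTHSC and 0 rose. Of all genes tested 34.7% changed and 17.7% fell. The median log2 fold change was -0.88 over the 9 members and 0.01 over all genes. The largest falls were in Klf12, Klf2, Klf4 and Klf6. Klf12 and Klf2 had too few counts to be tested within MkP alone. They passed the filter over all libraries through populations where they were higher, so their calls are not independent of it. Without the 4 libraries of low TMM factor 7 members were called again, with 39.2% of all genes. In bulk RNA, fewer cells that express a gene and less of its RNA per cell cannot be told apart.

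**Figure D2:**
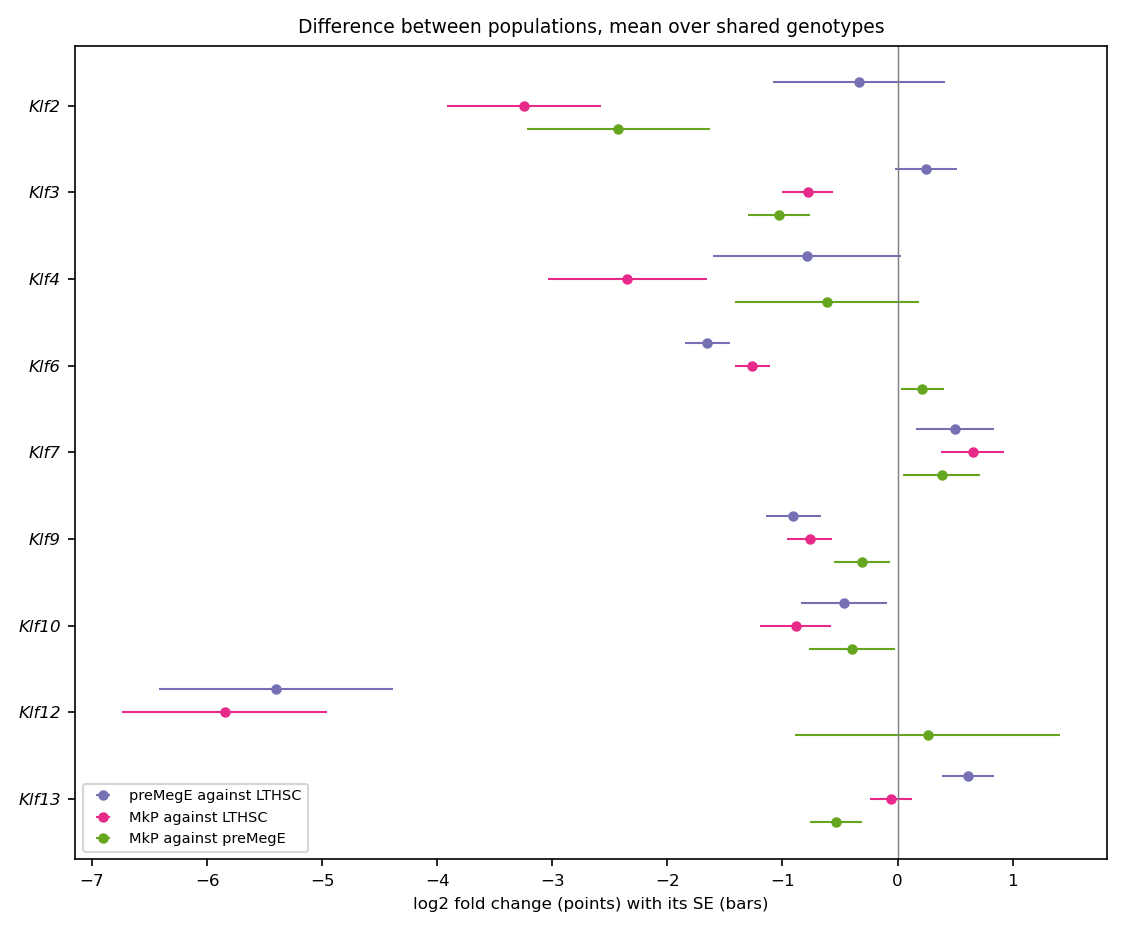
Log2 fold change (x axis) with its SE (bars) of each KLF gene (y axis) between populations, averaged over the genotypes that both have. MkP against LTHSC lies left of 0 for 8 of the 9 genes, and Klf12 shows the largest differences, at -5.40 in preMegE and -5.85 in MkP.

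Klf12, a CtBP-binding repressor, was the member most tied to LTHSC. In LTHSC it was at 7.55, 11.2 and 9.50 CPM in KI replicates 1, 2 and 3, at 0.83, 6.77 and 1.13 in E12 replicates 11, 2 and 4, and at 7.16, 8.82 and 12.4 in VF replicates 1, 2 and 3. In preMegE it was at 0.76, 0.034 and 0 CPM in KI replicates 1, 2 and 3 and at 0.19, 0 and 0.56 in VF. In MkP it was at 0.12, 0 and 0 CPM in KI replicates 4, 5 and 6, at 0.042, 0 and 0 in E12 replicates 2, 4 and 5, and at 0.082, 0.42 and 2.57 in VF. All LTHSC libraries lay above all preMegE libraries, and MkP VF 3 reached into the E12 stem cell range. The fitted fall was 5.40 on the log2 scale in preMegE (-5.40, SE 1.02, adjusted p = 0.00038) and 5.85 in MkP (-5.85, SE 0.89, adjusted p = 3.68e-05). These fits rest on 25 preMegE and 77 MkP counts in all and depend on the prior count, so they are no bounds. Klf12 also had too few counts to be tested within preMegE or within MkP alone. It passed the filter over all libraries through LTHSC, where it was high, so a called fall was likely beforehand. A library with 0 counts still allows up to 3 counts, which is 0.101 to 0.503 CPM in the 6 libraries concerned, for counting error only.

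Klf6, a widely expressed activator also known as a tumour suppressor, fell in both progenitor populations. In LTHSC it was at 431, 230 and 215 CPM in KI replicates 1, 2 and 3, at 104, 131 and 98.6 in E12 replicates 11, 2 and 4, and at 71.5, 76.6 and 115 in VF replicates 1, 2 and 3. In preMegE it was at 73.5, 88.0 and 72.5 CPM in KI and at 34.6, 32.3 and 32.9 in VF. In MkP it was at 61.7, 62.4 and 52.4 CPM in KI replicates 4, 5 and 6, at 45.5, 63.8 and 68.0 in E12 replicates 2, 4 and 5, and at 56.0, 57.6 and 64.6 in VF. Every LTHSC library lay above every MkP library, while KI preMegE overlapped with VF LTHSC. The log2 fold change was -1.65 (SE 0.19, adjusted p = 2.57e-06) in preMegE and -1.26 (SE 0.15, adjusted p = 2.57e-06) in MkP. Between MkP and preMegE Klf6 was not called.

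Klf2 and Klf4 fell in MkP against LTHSC, by 3.25 (log2 -3.25, SE 0.67, adjusted p = 0.00084) and by 2.35 (log2 -2.35, SE 0.69, adjusted p = 0.0122). Klf2 was at 1.98, 0 and 0.49 CPM in MkP KI replicates 4, 5 and 6, at 0.13, 0.32 and 0.10 in E12 replicates 2, 4 and 5 and at 0.12, 0.23 and 0.51 in VF. Klf4 was at 1.32, 0.34 and 1.13 CPM in MkP KI, at 0.21, 0.046 and 0 in E12 and at 0.54, 0 and 0.80 in VF. Klf2 had 66 counts in MkP KI 4 and at most 12 in each other MkP library, and Klf4 had 44 counts in KI 4 and at most 19 elsewhere. Klf2 had too few counts to be tested within MkP alone, so its call is not independent of the filter. The MkP levels of both overlapped with VF LTHSC, and within the VF line Klf4 was not lower in MkP (log2 1.23, adjusted p = 0.667). In preMegE neither was called against LTHSC, at log2 -0.33 for Klf2 and -0.79 for Klf4. Klf2 there depended on the library preMegE KI 1, and without it the gene fell in preMegE by 1.74 (log2 -1.74, SE 0.68, adjusted p = 0.0492).

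Klf9, which responds to glucocorticoid and thyroid hormone, fell in both progenitors, with log2 -0.90 (SE 0.24, adjusted p = 0.00536) in preMegE and -0.76 (SE 0.20, adjusted p = 0.00512) in MkP. Its LTHSC levels were 61.8 to 92.4 CPM for KI, 34.1 to 76.3 for VF and 11.9 to 30.7 for E12, and the 6 preMegE libraries held 25.7 to 42.8 CPM. Within the E12 line Klf9 was not lower in MkP than in LTHSC (log2 0.14, adjusted p = 0.902). Klf10, a TGF-beta-induced repressor, fell in MkP (log2 -0.88, SE 0.31, adjusted p = 0.0295). That call did not hold with limma voom (log2 -0.76, adjusted p = 0.0691) or without any 1 of LTHSC KI 3, LTHSC E12 11, MkP KI 6 and MkP E12 2 (log2 -0.64 to -0.84). Klf10 varied widely within groups, from 33.4 to 313 CPM in E12 LTHSC with the lowest value in E12 4, so a difference of this size was near the replicate spread.

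Klf3, the CtBP-binding repressor that Klf1 induces in red cell precursors, was lowest in MkP. It fell against LTHSC (log2 -0.78, SE 0.22, adjusted p = 0.00906) and against preMegE (log2 -1.03, SE 0.27, adjusted p = 0.0203). In preMegE it was at 62.9, 31.1 and 60.5 CPM in KI and at 33.4, 33.1 and 32.4 in VF. In MkP it was at 23.8, 26.0 and 7.77 CPM in KI replicates 4, 5 and 6 and at 17.5, 21.3 and 24.7 in VF, all below every preMegE library. Klf3 was the 1 member of 9 called between MkP and preMegE, where 7.54% of all genes changed. The call was lost without the 4 libraries of low TMM factor (log2 -0.77, adjusted p = 0.0547), with library size as the only scaling (adjusted p = 0.0887), without preMegE KI 3 (log2 -0.97, adjusted p = 0.0534) and without MkP VF 1 (log2 -0.97, adjusted p = 0.0633). Klf2 differed by log2 -2.43 there (SE 0.80, adjusted p = 0.0664), and was called without preMegE KI 3, without MkP KI 4 and by DESeq2.

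Klf13, a SIN3A-binding factor known from T cells and heart, was the member that rose in preMegE against LTHSC (log2 0.61, SE 0.22, adjusted p = 0.0343). It was at 307, 271 and 429 CPM in preMegE KI and at 240, 274 and 154 in VF, overlapping with KI LTHSC at 283, 319 and 175. The call was lost with library size as the only scaling (log2 0.21, adjusted p = 0.555) and without any 1 of LTHSC KI 3, LTHSC VF 1, LTHSC VF 2, preMegE KI 3, preMegE VF 1 and preMegE VF 2. In all, 3 members fell in preMegE (Klf12, Klf6 and Klf9) and Klf13 rose, 4 of 9 called where 40.7% of all genes changed. Without the 4 libraries of low TMM factor 6 of 9 were called, with Klf2 and Klf10 added, where 49.8% of all genes were. Klf7, which is known from neurons and fat tissue, was called in none of the 3 population comparisons and stayed between 2.59 and 15.9 CPM in all 24 libraries. It was called higher in MkP than in LTHSC without LTHSC E12 4 (log2 0.75, adjusted p = 0.0408) or without MkP KI 4 (log2 0.73, adjusted p = 0.0419).

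The population differences were also taken within each genotype, an alternative added after seeing the data. In MkP against LTHSC, 6 of 9 members were called within KI (30.2% of all genes), 3 within E12 (6.88%) and 0 within VF (5.46%, with 4 members at an unadjusted p under 0.05 in edgeR). Within KI these were Klf12, Klf2, Klf3, Klf4, Klf9 and Klf6. Within E12 they were Klf12, Klf2 and Klf6. The limit that the filter sets for Klf12 and Klf2 holds here too. In preMegE against LTHSC, 3 members were called within KI (Klf12, Klf9 and Klf6, against 29.3% of all genes) and 2 within VF (Klf12 and Klf6, against 10.6%). In MkP against preMegE, Klf3 was called within KI (2.89% of all genes) and 0 members within VF (1.02%, with Klf6 at an unadjusted p under 0.05). The log2 fold change of Klf6 between MkP and LTHSC was -2.31 (SE 0.28) in KI, -0.91 (SE 0.27) in E12 and -0.56 (SE 0.27) in VF.

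In stem cells of the VF line, Klf2, Klf4, Klf6, Klf13 and Klf3 stood below KI without overlap between the libraries. This comparison was known in part when the members were chosen, so it is given as a description without p-values. Klf2 was at 33.1, 9.22 and 30.7 CPM in KI replicates 1, 2 and 3 and at 0.49, 0.45 and 0.60 in VF. Klf4 was at 26.1, 11.6 and 10.3 CPM in KI and at 0.22, 0.15 and 0.19 in VF. Even the lowest KI library thus lay far above the highest VF library in both genes. The log2 fold changes were -5.58 (SE 0.75) for Klf2, -6.40 (SE 1.02) for Klf4, -1.76 (SE 0.32) for Klf6 and -1.10 (SE 0.32) for Klf13. The Klf13 levels were 283, 319 and 175 CPM in KI and 91.6, 131 and 149 in VF. Klf3 was at 55.9, 37.9 and 33.3 CPM in KI and at 30.2, 26.3 and 29.1 in VF. Markers of other cells differed along with these genes. The neutrophil and monocyte markers were below 0 in 11 of 12, 9 of them without overlap, with sums of 1333 to 3465 CPM for KI and 789 to 974 for VF. The 10 erythroid markers summed to 180 to 241 CPM in the VF libraries, against 66.5 to 91.9 in the KI libraries. Of these 10, 6 were above 0, 5 without overlap, and 4 were below 0. Of 9 megakaryocyte markers tested, 7 lay higher in VF without overlap and 2 were below 0. Their part in the KLF values was not tested.

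The other members overlapped between VF and KI LTHSC. Klf9 was at 61.8, 92.4 and 79.3 CPM in KI and at 34.1, 58.1 and 76.3 in VF. Klf10 was at 106, 115 and 241 CPM in KI and at 176, 212 and 219 in VF, and Klf7 was at 3.51 to 8.10 against 2.59 to 3.63 CPM. Klf12 averaged 9.40 ± 1.81 CPM in KI and 9.44 ± 2.66 in VF, so no difference was detectable for it. In all, 5 of 9 members lay lower in VF without overlap, as 13.5% of all genes tested did, and 0.0919% of all genes passed edgeR's threshold, which is not read for the members here. The median log2 fold change was -0.93 over the members and 0.00 over all genes. In the same libraries the nuclear RNA Malat1 ranged over 2994 to 4136 CPM for KI and 1274 to 1892 for VF, and its part in these differences was not tested.

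**Figure D3:**
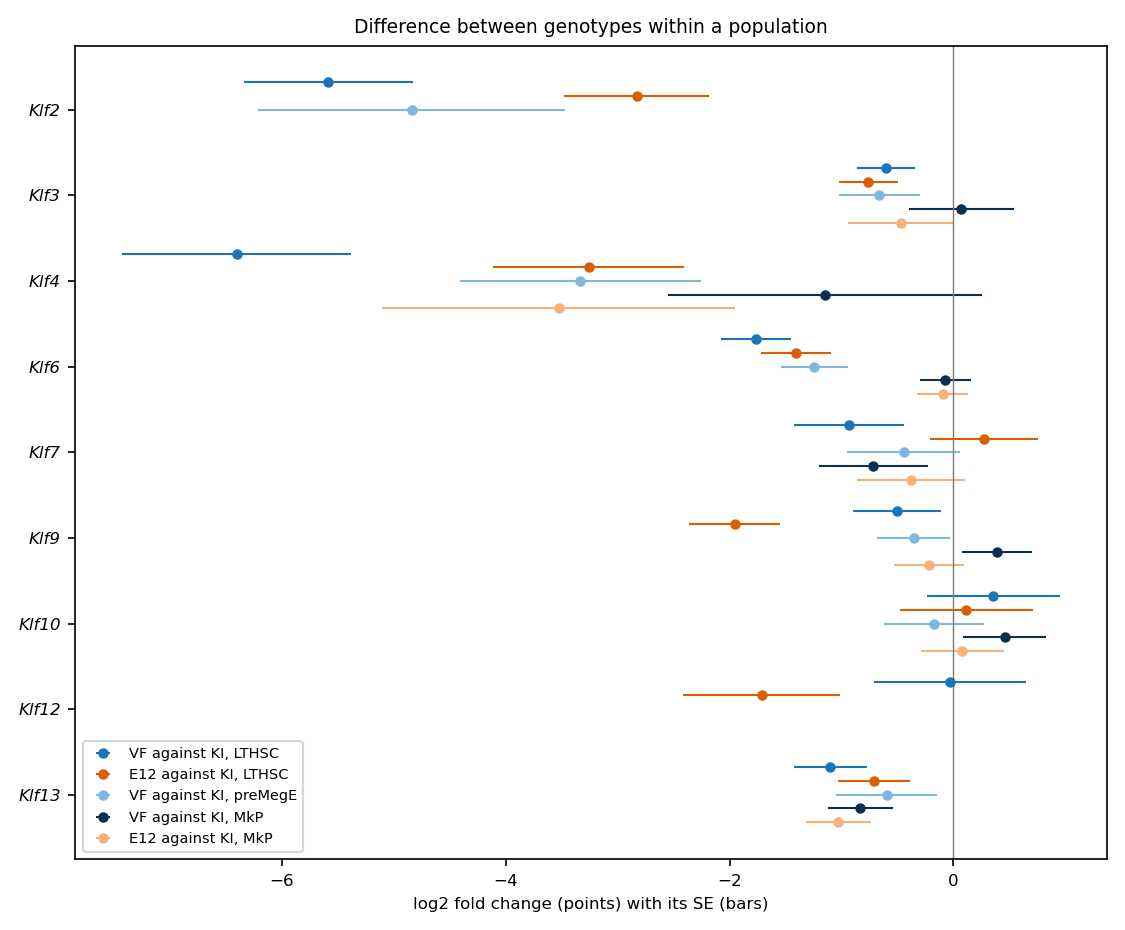
Log2 fold change (x axis) with its SE (bars) of each KLF gene (y axis) between genotypes within a population, with 1 colour per comparison and no point where low counts kept a gene out of the test. Klf2, Klf4 and Klf6 lie left of 0 in VF and E12 LTHSC and in VF preMegE, while Klf6 is close to 0 in both MkP comparisons.

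In stem cells of the E12 line, Klf2, Klf3, Klf4, Klf6, Klf9 and Klf12 stood below KI without overlap, 6 of 9 members where 7.65% of all genes did. None of the 9 passed edgeR's adjusted threshold, which 0.0424% of all genes passed. At an unadjusted p under 0.05 there were 6 members, and DESeq2 called 4 of them (Klf2, Klf4, Klf6 and Klf9) and limma voom 0. Klf2 was at 0.98, 5.49 and 3.79 CPM in E12 replicates 11, 2 and 4 (log2 -2.83, SE 0.65, adjusted p = 0.198). Klf4 was at 0.12, 2.78 and 2.07 CPM (log2 -3.26, SE 0.85, adjusted p = 0.231). In both genes E12 11 was the lowest of the 3, well below the other E12 libraries. The log2 fold change of Klf6 was -1.41 (SE 0.31, adjusted p = 0.191).

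Klf9 was at 11.9, 30.7 and 18.2 CPM in E12 replicates 11, 2 and 4, below all KI and all VF libraries (log2 -1.95 against KI, SE 0.41, adjusted p = 0.18). Klf12 was at 0.83, 6.77 and 1.13 CPM (log2 -1.71, SE 0.70, adjusted p = 0.328). E12 2 was the highest E12 library in both, and without it Klf9 and Klf12 were called by edgeR, with 2.74% of all genes, while without E12 4 no member was. The neutrophil and monocyte markers summed to 1613, 1878 and 27545 CPM in E12 replicates 11, 2 and 4. The erythroid markers summed to 899, 426 and 1118 CPM in the same order, and the part of either in these 2 genes was not tested. Klf3 was at 21.5, 28.6 and 25.3 CPM in E12. Klf13 (121, 146 and 209 CPM), Klf10 (313, 172 and 33.4) and Klf7 (7.89, 3.79 and 9.73) overlapped with KI. The median log2 fold change of the 9 members was -1.41, against 0.02 for all genes. All 10 erythroid markers were higher in E12 than in KI LTHSC, 9 without overlap, with a median of log2 3.15 and sums of 426 to 1118 against 66.5 to 91.9 CPM. The lymphoid sum of the E12 libraries was 195 to 1620 CPM, against 110 to 127 for KI, and that of 7 mast cell and basophil markers 15.4 to 656 against 4.88 to 33.9, each highest in E12 4. The part of these cells in the KLF values was not tested. Without E12 4 the log2 fold changes were -2.94 for Klf2, -3.48 for Klf4, -1.35 for Klf6, -1.91 for Klf9 and -1.34 for Klf12. VF and E12 were both compared with the same KI libraries, so the shared direction is not independent.

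The direct comparison of VF with E12 in LTHSC does not use the KI libraries in its fold change. There 4 of 9 members did not overlap, where 21.2% of all genes did not. Klf2 (log2 -2.75, SE 0.68, adjusted p = 0.367) and Klf7 (log2 -1.20, SE 0.49, adjusted p = 0.448) lay lower in VF. Klf12 (log2 1.68, SE 0.70, adjusted p = 0.448) and Klf9 (log2 1.45, SE 0.40, adjusted p = 0.433) lay higher in VF. Klf4 overlapped (log2 -3.14, SE 0.93, adjusted p = 0.441) because E12 11 was at the VF level. No member was called, where 0.0353% of all genes were. At an unadjusted p under 0.05 there were 5 members, and DESeq2 called 2 (Klf2 and Klf4) and limma voom 0. Without E12 2 edgeR called 1, Klf12, with 2.11% of all genes. Without E12 4 the log2 fold changes were -2.64 for Klf2, -2.92 for Klf4, -0.87 for Klf7, 1.40 for Klf9 and 1.31 for Klf12, with no call.

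In preMegE, 8 of 9 members had enough counts to be tested, and Klf12 did not. Klf4 was at 3.66, 1.88 and 4.01 CPM in KI replicates 1, 2 and 3 and at 0.49, 0 and 0.48 in VF (log2 -3.33, SE 1.08, adjusted p = 0.642). Klf6 differed by log2 -1.24 (SE 0.30, adjusted p = 0.593). Both lay lower in VF without overlap, 2 of 8 members where 5.69% of all genes did so. Klf2 was at 41.1, 3.70 and 0.56 CPM in KI and at 0.83, 0.48 and 0.28 in VF (log2 -4.84, SE 1.37, adjusted p = 0.642). Its KI values spread widely, with KI 1 above every LTHSC library and KI 3 within the VF range. KI 1 is the library with 3951 CPM of the 12 lymphoid markers, against 930 and 688 CPM in KI 2 and 3 and 546 to 1175 in VF, and 14007 CPM of Malat1. Of the 10 lymphoid markers tested, 9 were lower in VF than in KI. The median was log2 -1.87, and 7 lay lower without overlap, so below all KI libraries. Without KI 1 the log2 fold change was -2.01 for Klf2, -3.18 for Klf4 and -1.27 for Klf6, with no call. As stated above, much of the lymphoid sum was Nkg7. The libraries MkP KI 5 and MkP KI 6, with 4900 and 6589 CPM of these markers, held 0 and 0.49 CPM of Klf2. Mature lymphocytes are rich in Klf2, and the part of these markers in the Klf2 values of KI preMegE was not tested. The 12 neutrophil and monocyte markers summed to 3181 to 4279 CPM in KI preMegE and to 8821 to 19693 CPM in VF preMegE. The list was split, with 6 higher in VF, 5 without overlap, and 6 lower, 0 without overlap. The part of these markers in the Klf4 and Klf6 values was not tested. No member was called by edgeR, where 0.0151% of all genes were. At an unadjusted p under 0.05 there were 3 members, and DESeq2 called 1 (Klf2) and limma voom 0.

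In MkP, Klf2 and Klf12 had too few counts and 7 members were tested, with no call in the 3 genotype comparisons (0%, 0% and 0% of all genes). For VF against KI edgeR called 0 genes, with 3611 at an unadjusted p under 0.05, while DESeq2 called 2539 and limma voom 0. For E12 against KI edgeR called 0, with 3899 at an unadjusted p under 0.05, while DESeq2 called 2834 and limma voom 0. For VF against E12 edgeR called 0, with 167 at an unadjusted p under 0.05, while DESeq2 called 9 and limma voom 0. Klf13 was the member that differed most evenly. It was at 229, 310 and 191 CPM in MkP KI replicates 4, 5 and 6, at 90.0, 144 and 151 in E12 replicates 2, 4 and 5 and at 136, 152 and 149 in VF, below KI without overlap in both lines. Against KI its log2 fold change in E12 was -1.03 (SE 0.29, adjusted p = 0.0647). Without MkP KI 4 edgeR called Klf13 in both lines, 1 of 7 members, but this leaves the 2 KI libraries that stand apart, and 48.9% of all genes were then called in VF and 49.8% in E12. Without KI 5 and KI 6 the log2 fold change of Klf13 was -0.68 in VF (adjusted p = 0.316) and -0.88 in E12 (adjusted p = 0.132), with 1 KI library left, assumed to vary like the other groups. DESeq2 called it in both lines with all libraries. All 7 mast cell and basophil markers were lower in VF and in E12 than in KI MkP, 3 without overlap in each. They summed to 285 to 1004 CPM in KI, 90.8 to 156 in E12 and 48.8 to 107 in VF. Of 10 erythroid markers, 10 were higher in E12, 7 without overlap, and 8 in VF, 1 without overlap. The part of these markers in the Klf13 values was not tested.

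Klf4 in MkP rests on few counts, 60 in KI, 6 in E12 and 32 in VF over 3 libraries each. It differed by log2 -3.52 between E12 and KI (SE 1.58, adjusted p = 0.171), by -1.15 between VF and KI (SE 1.40, adjusted p = 0.607) and by 2.38 between VF and E12 (SE 1.53, adjusted p = 1). Without KI 5 and KI 6 the values against KI were -3.94 for E12 and -1.57 for VF. Klf9 was at 23.97, 27.001 and 21.52 CPM in MkP KI, at 13.9, 26.9 and 26.1 in E12 and at 27.2, 38.8 and 35.1 in VF, highest in VF. Groups without overlap were found for 2 of 7 members in VF against KI (Klf13 and Klf9, 20.3% of all genes), 2 of 7 lower in E12 against KI (Klf4 and Klf13, 7.4%) and 2 of 7 higher in VF against E12 (Klf9 and Klf10, 6.59%). At an unadjusted p under 0.05 there were 1, 2 and 0 members in these comparisons. Klf6 lay between 45.5 and 68.0 CPM in all 9 MkP libraries.

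Whether a genotype difference changed with the population was tested as a difference of differences over all 24 libraries. No member was called by edgeR in any of the 3 tests. Both VF tests contain the VF against KI difference in LTHSC, which was known in part when the members were chosen. Their values, p-values and calls are thus descriptions and not independent support. The E12 test uses the same KI libraries. For VF against KI, MkP against LTHSC, the values were log2 5.27 for Klf4 (SE 1.66, adjusted p = 0.254), 3.87 for Klf2 (SE 1.58, adjusted p = 0.279), 1.75 for Klf6 (SE 0.38, adjusted p = 0.173) and 3.88 for Klf12 (SE 1.88, adjusted p = 0.352). For Klf2, Klf4 and Klf6 a positive value means that VF lay less far below KI in MkP than in LTHSC. In MkP, Klf2 had 72 counts in KI and 20 in VF, and Klf4 had 60 and 32. At such levels VF had little room to lie below KI. The Klf2 and Klf4 values thus cannot be told apart from an effect of low counts. Klf12 did not differ between VF and KI LTHSC in its mean, and its value rests on MkP, where VF 3 alone held 61 of the 72 VF counts against 4 counts in KI. Of all genes 0.0134% were called. For E12 against KI, Klf9 (log2 1.83, SE 0.49) and Klf6 (log2 1.40, SE 0.38) both had adjusted p = 0.0568, where 0.0334% of all genes were called. For VF against KI in preMegE against LTHSC, Klf4 stood at log2 3.09 (SE 1.62, adjusted p = 0.906) and 0% of genes were called, with 663 at an unadjusted p under 0.05, 11 by DESeq2 and 0 by limma voom. At an unadjusted p under 0.05 there were 3 members in the first test, 2 in the second and 0 in the third. DESeq2 called 1 (Klf6), 2 (Klf6 and Klf9) and 0, and limma voom none. Without MkP KI 4 edgeR called 3 of 9 members in the first test (Klf2, Klf4 and Klf6), where 17.0% of all genes were then called, and 2 of 9 in the second (Klf6 and Klf9), where 29.5% were. Without LTHSC E12 2 the same 2 members were called in the second test, with 10.2% of all genes. Without the 4 libraries of low TMM factor no member was called, with log2 2.78 for Klf2, 4.82 for Klf4 and 1.67 for Klf6 in the first test and 1.73 for Klf9 and 1.22 for Klf6 in the second.

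Klf2, Klf4 and Klf6 followed the immediate-early genes, regulators that cells switch on within minutes of a growth, stress or handling signal. The list holds 21 such genes and none of the KLF members. Its summed LTHSC level was highest for KI, at 5965 to 10732 CPM. The E12 libraries reached 940.5 to 3264 CPM and the VF libraries 622 to 976. In preMegE it was 1720 to 2724 CPM for KI and 373 to 515 for VF, and 454 to 838 over all MkP libraries. Across 24 libraries the Pearson correlation of log2 levels with this sum was 0.872 for Klf2, 0.857 for Klf4 and 0.884 for Klf6. It was 0.377 to 0.491 for Klf3, Klf9, Klf12 and Klf13, 0.083 for Klf10 and -0.015 for Klf7. Within the 9 LTHSC libraries it was 0.988 for Klf2, 0.982 for Klf4, 0.883 for Klf6, 0.751 for Klf13, 0.736 for Klf3 and -0.304 to 0.356 for the other members. The points share libraries, scaling and the differences between groups, so these values are descriptions. Klf2 and Klf4 were also correlated with each other (0.819).

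**Figure D4:**
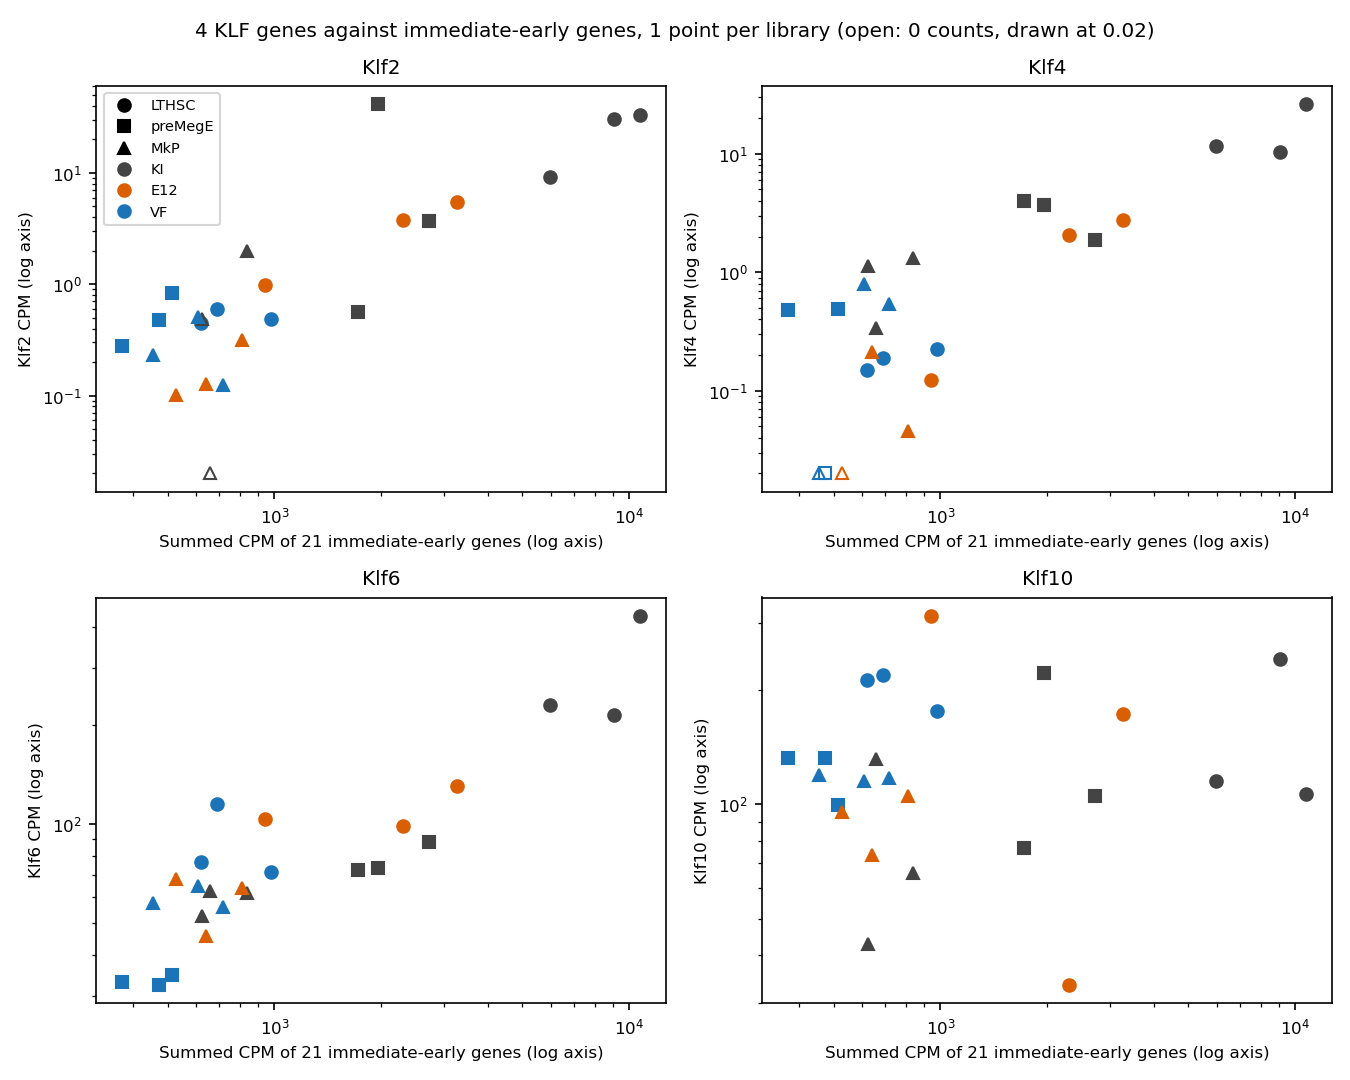
Level of Klf2, Klf4, Klf6 and Klf10 (y axis, CPM, log scale) against the summed level of 21 immediate-early genes (x axis, CPM, log scale) in 24 libraries, with shape for population, colour for genotype and open points for 0 counts, drawn at 0.02. The 3 KI stem cell libraries lie at the upper right for Klf2, Klf4 and Klf6, preMegE KI 1 lies above the others at its sum for Klf2, and Klf10 shows no such order (r = 0.083).

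The immediate-early list was chosen with earlier results of these data known. Its calls and p-values are thus descriptions and not independent support. In VF against KI LTHSC, 6 of the 21 immediate-early genes fell and 0 rose, where 0.0919% of all genes were called. The list median was log2 -3.23, against 0.00 for all genes. Egr1, a zinc finger factor of growth signals, fell by 5.37 (log2 -5.37, SE 0.54, adjusted p = 0.00814), and Junb, a subunit of AP-1, by 3.23 (log2 -3.23, SE 0.34, adjusted p = 0.00814). Ppp1r15a, Zfp36, Ier5 and Dusp1 also fell. Without any 1 of the VF libraries 1 gene was called over all genes, so at most 1 of these 6 calls held. DESeq2 called 251 genes with all libraries. In E12 against KI LTHSC the list median was -2.00 and all 21 were below 0, with 0 called by edgeR, where 0.0424% of all genes were. In VF against KI preMegE, Fosb fell (log2 -5.20, SE 0.59, adjusted p = 0.0426), where 0.0151% of all genes were called, and the median was -1.62. With RLE scaling, without VF 1 or without VF 3 this comparison had 0 called genes, so the Fosb call was lost. DESeq2 called 68 genes there. In MkP the medians were -0.21 for VF and -0.30 for E12 against KI with 0 called. Between populations 15 of 21 fell in preMegE and 16 in MkP against LTHSC. Of all genes, 40.7% changed in either direction in preMegE, and 34.7% in MkP, where 17.7% fell. The part of this signal in the KLF differences was not tested.

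By likeness over all 24 libraries, the 5 genes closest to Klf2 among 9397 genes with a mean of at least 10 CPM were Ier2 (r = 0.873), Egr1 (0.865), Fos (0.856), Fosb (0.848) and Junb (0.846). All 5 stand in the immediate-early list. Among the 5 closest to Klf12, the other gene of largest spread, were Pnrc1 (r = 0.894), Myof (0.870), Rassf2 (0.867) and Hoxa10 (0.867). None of these stands in that list.

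The other KLF and SP genes were taken for comparison, and no test set them against the 9 members. Of 17 other KLF and SP genes, 12 had enough counts over all libraries, and Klf14, Sp5 and Sp9 were at 0 in all 24. Klf1, the activator of globin and other red cell genes, rose in preMegE against LTHSC by log2 6.07 (SE 0.42, adjusted p = 8.83e-09) and in MkP by log2 2.11 (SE 0.29, adjusted p = 9.13e-06). Klf5, an activator of epithelial growth, rose in both (log2 1.14, adjusted p = 0.0431, and 1.18, adjusted p = 0.0148). Klf16 rose in MkP (log2 0.60, adjusted p = 0.0354). These are 2 of 12 in preMegE and 3 of 12 in MkP, below the 40.7% and 34.7% of all genes. None of the 17 fell against LTHSC, and Klf1 alone fell between MkP and preMegE (log2 -3.14, SE 0.36, adjusted p = 2.42e-05). In the 7 genotype comparisons edgeR called 0 of the 9 to 11 tested.

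Genes upstream of the KLFs and their partners were compared from a list of 14, with the MEK5-ERK5 kinases and MEF2 factors that induce Klf2 and Klf4, FOXO factors, the CtBP and SIN3A corepressors and ubiquitin ligases. In preMegE against LTHSC 3 of 14 fell and in MkP 2 of 14 changed, below the 40.7% and 34.7% of all genes. In preMegE these were Map3k2 (log2 -0.89, SE 0.26, adjusted p = 0.00984), Foxo1 (log2 -0.98, SE 0.30, adjusted p = 0.0126) and Map2k5 (log2 -0.49, SE 0.18, adjusted p = 0.0345). In MkP Mef2c, a MEF2 factor of megakaryocytes, rose (log2 1.44, SE 0.15, adjusted p = 3.84e-07) and Map3k3 fell (log2 -1.12, SE 0.24, adjusted p = 0.00104). Against preMegE, MkP had higher Mef2c (log2 1.49, adjusted p = 5.23e-05) and Ctbp2 (log2 0.70, adjusted p = 0.0458). In the genotype comparisons none of the 14 was called by edgeR.

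A list of 7 genes known as KLF targets was compared as well. In preMegE against LTHSC 4 of 7 rose and 0 fell, where 40.7% of all genes changed and 3183 of 14965 rose. Among the 4 were the integrin Itgb7 (log2 1.37, SE 0.26, adjusted p = 0.000349), the cell cycle inhibitor Cdkn1a (log2 2.68, SE 0.64, adjusted p = 0.00234) and Lgals3 (log2 1.74, SE 0.62, adjusted p = 0.0278). In MkP against LTHSC 2 of 7 changed, against 34.7% of all genes: Thbd, the thrombin receptor of endothelium, rose (log2 1.44, SE 0.34, adjusted p = 0.00247) and Itgb7 fell (log2 -0.80, SE 0.21, adjusted p = 0.00538). Against preMegE, 2 of 7 fell in MkP and 0 rose, where 7.54% of all genes changed and 638 of 14965 fell. Itgb7 was 1 of the 2 (log2 -1.78, SE 0.26, adjusted p = 0.000182). None of the 7 was called in a genotype comparison. The median in VF against KI LTHSC was -0.46, with 6 of 7 below 0, and in E12 against KI LTHSC it was 1.03, with 5 of 7 above 0.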

How the data were processed

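Gene expression was measured by Smart-seq2 after PicoPure extraction in 24 libraries of sorted mouse bone marrow. The authors deposited whole-number counts by Entrez gene. The submitters' processing notes name mm10, Subread 1.6.4, featureCounts and STAR 2.7.0c. Which annotation and strandedness were used, and how reads with several matches were treated, is not given in the sources used here, so overlapping genes on the other strand cannot be separated. The authors' deposited gene length in bases was used for levels per kilobase. Without molecular identifiers a read is not a separate molecule, and limits from 0 counts (3 counts) cover counting error only.

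Columns were mapped to samples by title, and 6 columns named MEP were taken as preMegE by genotype and replicate number. No value column (0) was left unmapped. Rows without a symbol, 16 in number and at most 0.0132% of a library, were left out. Over 276 library pairs the lowest chi-square per degree of freedom was 19.8, so no pair agreed within sampling noise.

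Tests were 2-sided robust quasi-likelihood F tests of edgeR 4.0.16 (R 4.3.3) after TMM scaling and filterByExpr with the groups, with Benjamini-Hochberg adjustment over all genes tested and a threshold of 0.05. The 7 genotype comparisons were fitted within a population, so their scaling factors differ slightly from those of the printed CPM. The 3 population comparisons, averaged over shared genotypes, and the 3 differences of differences were fitted over all 24 libraries. SEs were computed from the log2 fold change and the F statistic. The steps were tested on simulated data. Correlations used log2 CPM with a prior count of 2.

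The 9 members and the 12 gene lists were chosen with earlier results of these data known. Log2 fold changes are printed for members with an adjusted p under 0.05 or a log2 fold change of at least 1 in size, and for some others beside them, chosen after their values were seen. Of other lists, called members are named by smallest p, up to 5, and some genes are not reported here. Genes of like pattern are the 5 most correlated with each of the 2 members of largest spread. Alternatives were RLE scaling, library size alone, no filter on low counts, DESeq2 1.42.0, limma 3.58.1 voom, the replicate number as a block, only the groups compared, leaving out libraries, and, added after seeing the data, population differences within a genotype. RefSeq promoters of GRCm38.p6 were found for 8 of 9 members.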

Additional observations from a re-analysis of the deposited data

How the results depend on the processing

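Over 41 log2 fold changes of members and 727 values under alternatives, 651 kept direction and side of the threshold, 38 kept the direction and lost the threshold, 36 kept the direction and passed it, and 2 reversed. Among them are those of VF against KI LTHSC, where the threshold is not read for the members. The reversals were within single genotypes in MkP against LTHSC: Klf9 within E12 (log2 0.14, adjusted p = 0.902) and Klf4 within VF (log2 1.23, adjusted p = 0.667). Where the cause of a changed count is not stated below, the cause was not tested.

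Calls of members in VF against KI LTHSC are not read here, as this comparison was known in part when the members were chosen. The VF differences between populations contain it, so their calls are descriptions. DESeq2 called 4 members in E12 against KI and 2 in VF against E12 LTHSC, 1 in VF against KI preMegE, 1 in VF against KI and 1 in E12 against KI MkP, 2 in MkP against preMegE, and 1 and 2 in the VF and E12 differences between MkP and LTHSC. MkP against preMegE had 0 with library size alone, 0 without the 4 libraries of low TMM factor and 0 within VF. Within single genotypes preMegE against LTHSC had 2 in VF, and MkP against LTHSC had 3 in E12 and 0 in VF.

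Leaving out 1 library gave 0 to 2 members in E12 against KI LTHSC and 0 to 1 in VF against E12 LTHSC (both higher without E12 2). In VF against KI preMegE it gave 0 to 0. In MkP it gave 0 to 1 in VF and in E12 against KI (1 without KI 4) and 0 to 0 in VF against E12. It gave 3 to 5 in preMegE against LTHSC, 6 to 8 in MkP against LTHSC, and 0 to 2 in MkP against preMegE (0 without MkP VF 1, 2 without MkP KI 4). The differences of differences gave 0 to 0 for VF in preMegE, 0 to 3 for VF in MkP and 0 to 2 for E12 in MkP.

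Counts over all genes moved as well. VF against KI LTHSC had 13 called genes as reported, 5 with library size alone, 251 with DESeq2 and 293 without the 4 libraries. It had 933 with only the 2 groups compared, which drops E12 from the shared spread, and 704 with the replicate block. Leaving out KI 1, KI 2 or KI 3 gave 4, 7 and 3, and leaving out any 1 VF library gave 1. E12 against KI LTHSC had 6 and 438 (DESeq2), and VF against KI preMegE 2 and 68 (DESeq2). The latter had 0 with RLE scaling, without VF 1 and without VF 3, and 32 without KI 1. MkP against preMegE had 1128 as reported and 2708 without the 4 libraries. Without MkP KI 4 the counts went from 0 to 6732 for VF and from 0 to 6856 for E12 against KI in MkP, and from 2 to 2614 and from 5 to 4530 for the VF and E12 differences between MkP and LTHSC. E12 against KI in MkP had 1041 without a filter on low counts and 2834 with DESeq2, and VF against KI 2539 with DESeq2. Without LTHSC E12 2, E12 against KI LTHSC had 396 and the E12 difference 1556. Library size alone moved the median log2 fold change of all genes to -0.41 in preMegE and -0.28 in MkP against LTHSC and, in MkP against KI, to 0.54 in the VF line and 0.55 in the E12 line, so a shift of the whole library enters those values.

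The labels do not say whether a shared number pairs libraries. Deviations of same-numbered libraries correlated at -0.021 to 0.323 within a population (11 pairs) and at -0.053 to 0.111 within a genotype (14 pairs), not over 0.1 in every pair, so the numbers were not used as pairs. With the replicate block no member count changed by more than 1.5 times, VF against KI LTHSC left aside. Limits of depth bear on Klf2, Klf4 and Klf12, which had 0 counts in 1, 3 and 6 libraries.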
